A study of Homo sapiens and Mus musculus with 12 samples.

Results

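The clustered histone genes are the protein-coding histone genes that lie together on the short arm of human chromosome 6. They were taken as the GENCODE release 44 protein-coding genes in a window of 2.5 Mb on chromosome 6 (GRCh38), with first and last start at 25726562 and 27893425, whose symbols begin with H1-, H2AC, H2BC, H3C or H4C. This gave 55 genes of 19689 protein-coding genes, leaving 19634 others. The 55 genes were 6 H1, 12 H2A, 15 H2B, 10 H3 and 12 H4 genes. Peaks of 5 chromatin immunoprecipitation sequencing (ChIP-seq) libraries were counted at their starts, 1 library for each combination of antibody and cells.

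THP1, a human monocytic leukemia line, was immunoprecipitated with antibodies to SPI1 and to GFI1. K562, a human myeloid leukemia line with erythroid features, expressed Cas9 and carried either a non-targeting guide RNA (sg-NT) or a guide RNA against LSD1 (sg-LSD1). Antibodies to LSD1 and to GFI1 were used on the sg-NT cells, and an antibody to GFI1 on the sg-LSD1 cells. An LSD1 peak list of sg-LSD1 cells was not analysed here, so the LSD1 peaks described were not set beside cells depleted of their target. In all 5 immunoprecipitations the cells were fixed with the protein crosslinker DSG (1.5 mM) followed by formaldehyde (1%), and 5 µg of antibody was used. With 1 library in each group no difference between libraries could be tested, and no p-value between groups is given.

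Most histone genes of this cluster are replication-dependent. Their messages are made in S phase, when new DNA has to be packed into nucleosomes, and end in a stem loop in place of a poly(A) tail. H2A, H2B, H3 and H4 form the core of the nucleosome, and H1 binds the DNA between nucleosomes. Many H2A and H2B genes are transcribed in opposite directions from a shared promoter, and NPAT drives the promoters from within nuclear bodies that form at these loci. LSD1 (KDM1A) removes methyl groups from lysine 4 of histone H3. GFI1 is a DNA-binding repressor that recruits LSD1, and SPI1 (PU.1) is an activator of myeloid genes.

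The 55 starts fell into 4 groups separated by more than 200 kb. The first, at chr6:25726562-25726777, held the pair H2AC1 and H2BC1. The second, at chr6:26017787-26285534, held 32 genes over 268 kb. The third, at chr6:27132795-27147106, held the 5 genes H2BC11, H2AC11, H4C9, H2BC12 and H2AC12 over 14.3 kb. The fourth, at chr6:27807929-27893425, held 16 genes over 85.5 kb. When starts at most 1000 bp apart were joined, the 55 genes made 44 promoters. Of these, 11 served 2 genes each, 10 of them an H2A and an H2B gene and 1 an H2B and an H3 gene. All 12 H4 genes and all 6 H1 genes had a promoter of their own.

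**Figure D1:**
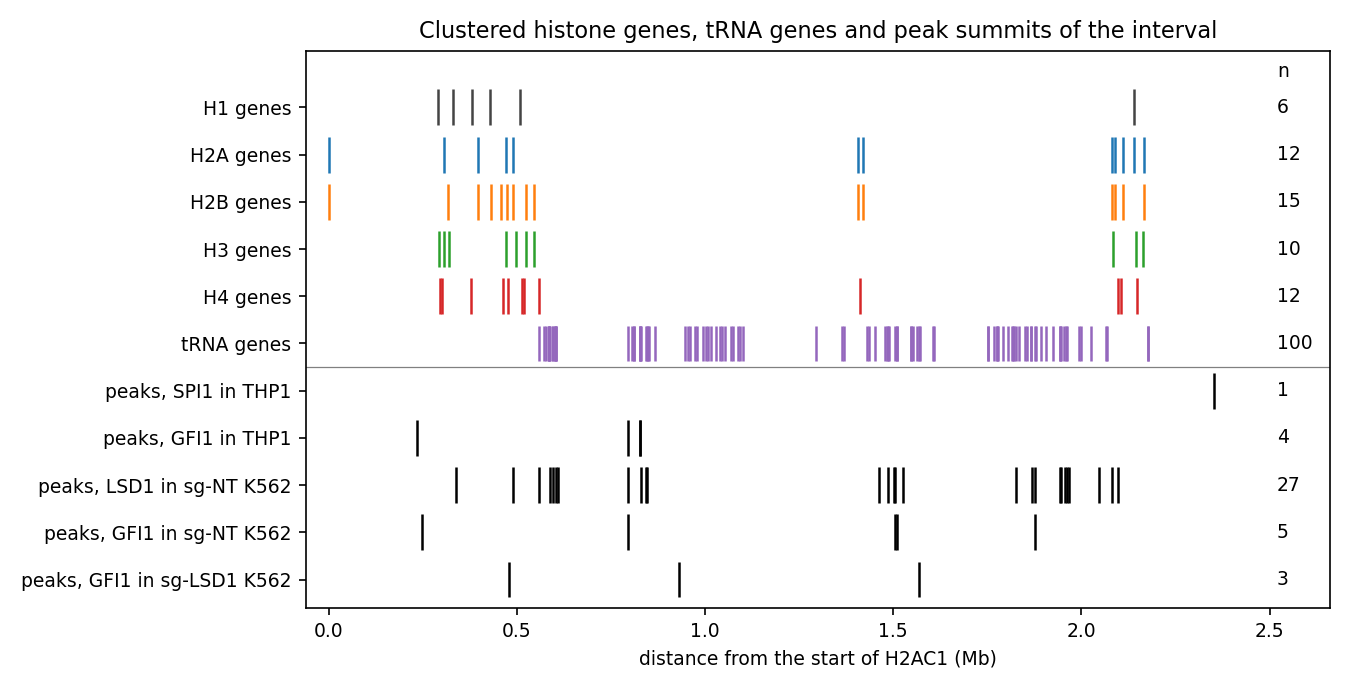
Map of the interval, with the distance from the start of H2AC1 in Mb on the x axis. Each tick is the start of a histone gene, the start of a tRNA gene or the summit of a peak, and n is the number of ticks in the row. The LSD1 row of sg-NT K562 cells holds 27 summits, 16 of them within 1000 bp of a tRNA gene, and the SPI1 row holds 1.

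Of the 55 genes, 6 had a peak summit within 1000 bp of a start, all of them in the LSD1 list of sg-NT K562 cells. They were the H2A genes H2AC8 and H2AC13, the H2B genes H2BC8 and H2BC13, and the H4 genes H4C8 and H4C11. The 6 genes shared 4 peaks, because H2AC8 and H2BC8 are a divergent pair and so are H2AC13 and H2BC13. The promoter sequences of these 4 sites are shown because every peak that any list placed within 1000 bp of a clustered start lay near them. The stretches printed for the pairs have no base in common with their peaks. The H4C8 and H4C11 peaks reach into the windows printed for them. All sequences run 5′ to 3′ in GRCh38. For each pair the whole stretch between the starts is given on the plus strand (chr6:26216689-26216920 and chr6:27807930-27808172), with the H2B gene leaving to the left and the H2A gene to the right. For H4C8 (chr6:26285535-26285784, minus strand) and H4C11 (chr6:27823842-27824091, plus strand) the 250 bases upstream of the start are given along the direction of transcription. Capitals mark, on either strand, the TATA box with the letters TATAAA, the CCAAT box, which is spelled as its name, and the octamer with the letters ATTTGCAT.
H2BC8-H2AC8: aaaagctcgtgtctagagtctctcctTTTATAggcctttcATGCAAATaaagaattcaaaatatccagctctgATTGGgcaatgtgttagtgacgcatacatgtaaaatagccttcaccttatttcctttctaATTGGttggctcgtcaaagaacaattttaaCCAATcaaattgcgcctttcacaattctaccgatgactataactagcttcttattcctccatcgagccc
H2BC13-H2AC13: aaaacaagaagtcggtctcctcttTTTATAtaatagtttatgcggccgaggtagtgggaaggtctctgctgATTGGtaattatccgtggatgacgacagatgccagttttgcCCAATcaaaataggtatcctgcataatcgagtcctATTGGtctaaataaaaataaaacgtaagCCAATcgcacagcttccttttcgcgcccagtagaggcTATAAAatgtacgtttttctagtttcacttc
H4C8: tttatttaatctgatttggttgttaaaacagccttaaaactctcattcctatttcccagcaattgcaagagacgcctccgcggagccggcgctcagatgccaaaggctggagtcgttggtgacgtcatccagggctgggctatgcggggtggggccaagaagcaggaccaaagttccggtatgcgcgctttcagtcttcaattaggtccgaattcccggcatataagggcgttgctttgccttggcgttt
H4C11: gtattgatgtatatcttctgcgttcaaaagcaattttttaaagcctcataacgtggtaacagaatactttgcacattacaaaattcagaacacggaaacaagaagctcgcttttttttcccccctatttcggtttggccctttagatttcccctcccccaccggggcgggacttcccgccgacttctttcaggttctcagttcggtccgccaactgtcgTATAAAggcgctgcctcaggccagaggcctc

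These sequences differ in their promoter elements. The H2BC8-H2AC8 stretch of 232 bases held 1 TATA box, 1 octamer and 3 CCAAT boxes. The H2BC13-H2AC13 stretch of 243 bases held 2 TATA boxes, 1 near each start, and 4 CCAAT boxes, and lacked the exact letters of the octamer. The H4C11 window held 1 TATA box. The H4C8 window held none of the letters searched.

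Over all 55 genes, the same elements were searched in the 250 bp upstream of the start, on both strands. TATAAA was present in 37 of 55 windows (67.3%) and in 9.15% of the windows of other genes. CCAAT was present in 48 (87.3%, against 34.2%), which included every H1, H2A, H2B and H3 gene and 5 of 12 H4 genes. The octamer ATTTGCAT, known from H2B promoters, was present in 22 (40%, against 1.46%). It lay before 10 of 12 H2A genes and 12 of 15 H2B genes and before no H1, H3 or H4 gene. AAACACA, known as the H1 box, was present before all 6 H1 genes and no other clustered gene, and before 3.64% of other genes. The letters CGTCCG, searched as the HINFP core known from H4 promoters, were in no window of the 55 genes and in 10.2% of the others. Only exact letters were counted, so this does not show that variants of the element are absent. Windows of paired genes overlap, so these counts are not independent of each other.

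The letters searched for the factors of the study, all in the same windows, were AATCAC for GFI1 and GAGGAAGT for SPI1. AATCAC was present before 13 of the 55 genes (23.6%, against 7.55% of other genes). It lay before 5 of 6 H1 genes, 3 of 12 H2A, 2 of 15 H2B, 3 of 10 H3 and no H4 gene. None of the 55 genes, these 13 included, had a GFI1 peak in any of the 3 GFI1 lists. The letters could therefore not be related to GFI1 peaks here. GAGGAAGT was in no window of the 55 genes and in 2.1% of the others. None of the 7 motifs was found in the 50 bp or the 200 bp centered on the 4 LSD1 summits.

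In the LSD1 list of sg-NT cells, which held 6548 peaks, the 6 of 55 genes made 10.9% (95% Wilson interval 5.10 to 21.8%). Of the 19634 other protein-coding genes, 1692 (8.62%) had a peak by the same rule. The 95% interval of the clustered genes holds the value of the others, so their share was near the background. Counted by promoter, 4 of 44 had a peak, and no matching share of other promoters is given. Wilson intervals cover counting error only.

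In the other lists no clustered histone gene had a summit within 1000 bp of its start, and a count of 0 of 55 allows a share of up to 5.45%. The SPI1 list of THP1 cells (1846 peaks) held a peak at 1.33% of other genes, and the GFI1 list of THP1 cells (3461 peaks) at 4.77%. The GFI1 lists of K562 cells were shorter, with 498 peaks in sg-NT and 160 in sg-LSD1 cells, and held a peak at 0.311% and 0.102% of other genes. All 4 of these shares lie under the limit that 0 of 55 allows, so a lower share at the clustered genes was not detectable.

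**Figure D2:**
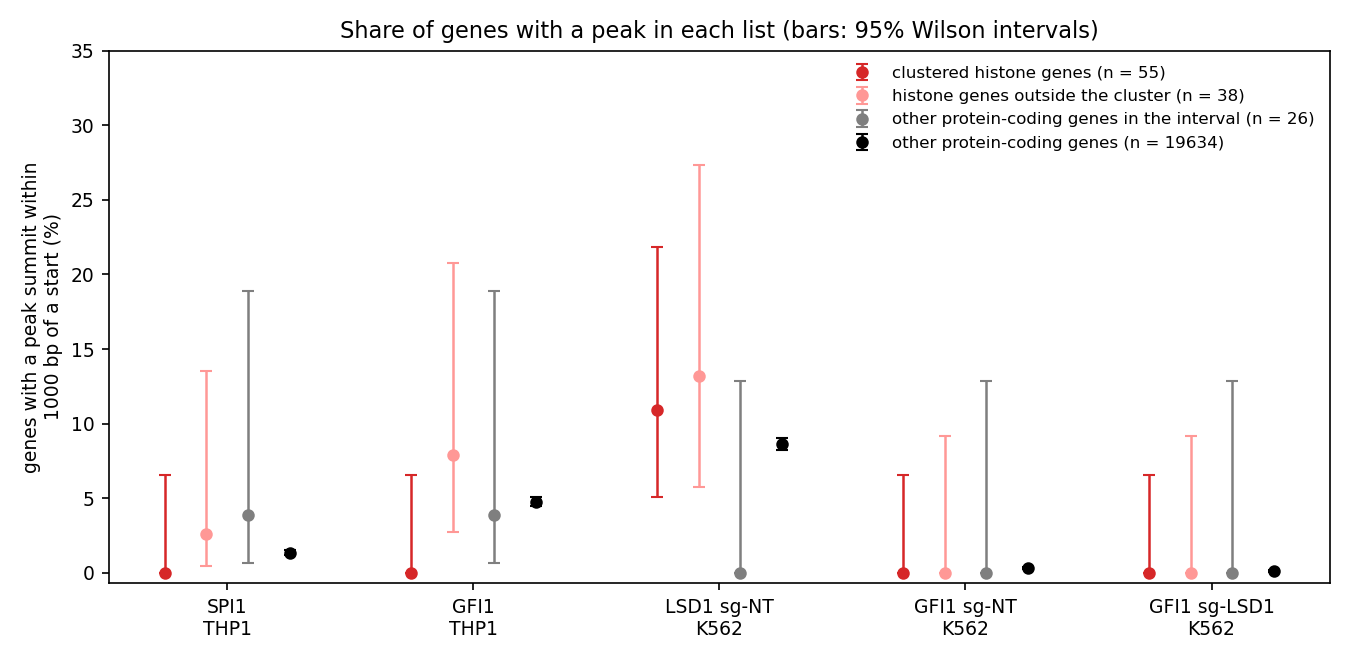
Share of genes with a peak summit within 1000 bp of a start (y axis, percent) in each of the 5 lists (x axis), for 4 sets of genes. Points are shares and bars are 95% Wilson intervals. The clustered histone genes are at 10.9% in the LSD1 list, beside 8.62% of other protein-coding genes, and at 0 in the other 4 lists.

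By class, none of the 6 H1 genes, the linker histones, had a peak in any list. Along the chromosome these are H1-1, H1-2, H1-6, H1-4, H1-3 and H1-5. The nearest LSD1 summit to an H1 gene lay 8.37 kb from the start of H1-2, at 26064842, with an enrichment of 8.38-fold (−log10 p 15.2).

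Among the H2A genes 2 of 12 had an LSD1 peak, and the other 10 had none. H2AC8 starts at 26216921 on the plus strand. Its peak ran from 26217011 to 26217304 with the summit at 26217195, 274 bp into the transcript. Its enrichment was 4.87-fold (−log10 p 6.75, −log10 q 3.55), which put it at rank 5941 of 6548. It was the weakest of the 4 peaks. H2AC13 was counted through the peak of its partner H2BC13, whose summit lay 413 bp upstream of the H2AC13 start at 27808173.

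Among the H2B genes 2 of 15 had an LSD1 peak, and the other 13 had none. H2BC13 starts at 27807929 on the minus strand. Its peak ran from 27807499 to 27807855 with the summit at 27807760, 169 bp into the transcript. Its enrichment was 6.23-fold (−log10 p 9.19, −log10 q 5.70), at rank 4392, the strongest of the 4. H2BC8, which starts at 26216688, was counted through the H2AC8 peak, whose summit lay 507 bp upstream of its start.

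Each pair had 1 summit, which lay within the body of 1 gene of the pair and outside the stretch between the starts printed above. The whole peak also lay outside that stretch. None of the 10 H3 genes had a peak in any list.

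Among the H4 genes 2 of 12 had an LSD1 peak, and the other 10 had none. H4C8 starts at 26285534 on the minus strand. Its peak was the widest at 608 bp, from 26285277 to 26285884, with the summit at 26285521, 13 bp into the transcript. Its enrichment was 6.11-fold (−log10 p 8.77, −log10 q 5.36), at rank 4857. A tRNA gene, TRX-CAT1-2, lay 1005 bp from this summit. H4C11 starts at 27824092 on the plus strand. Its peak ran from 27824035 to 27824459 with the summit at 27824269, 177 bp into the transcript. Its enrichment was 5.59-fold (−log10 p 7.89, −log10 q 4.55), at rank 5165.

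**Figure D3:**
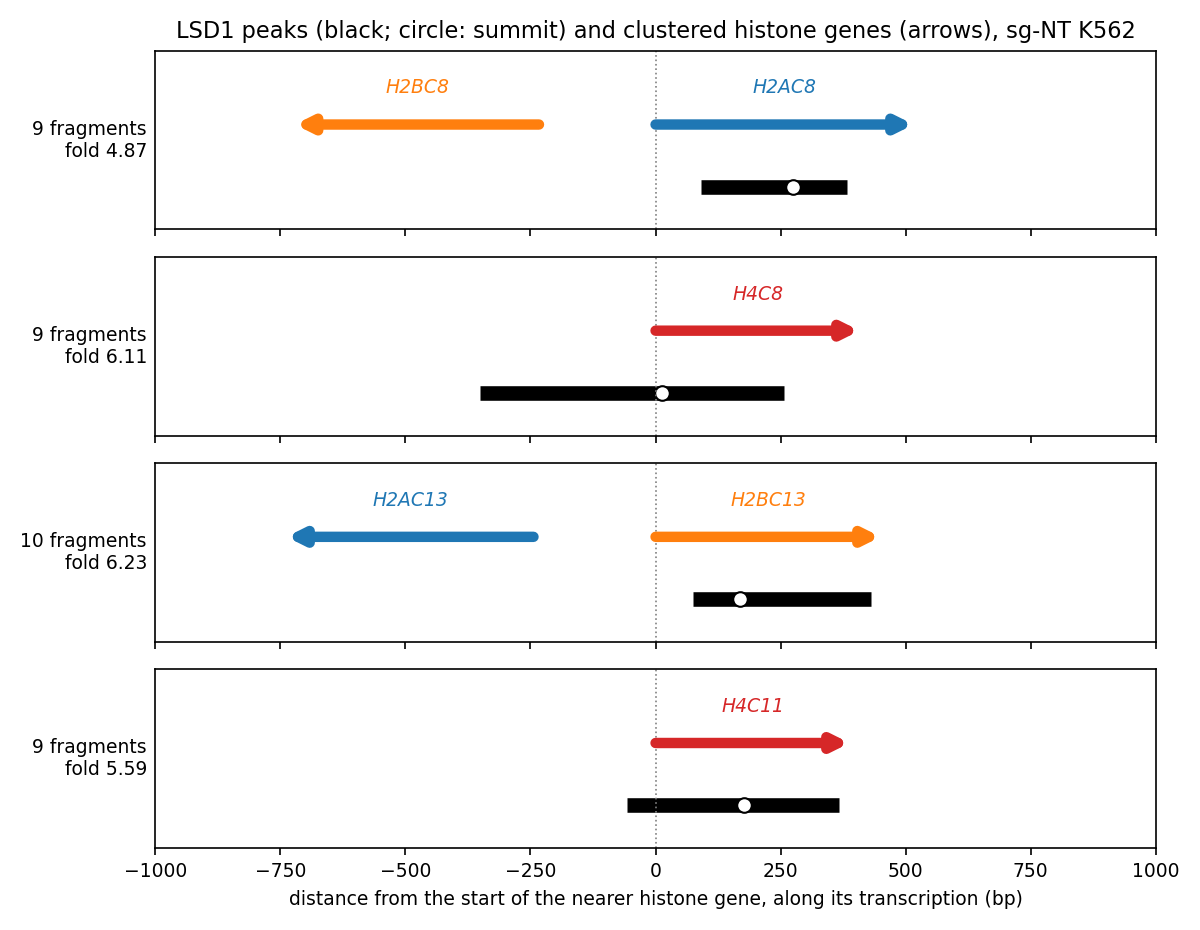
The 4 LSD1 peaks of sg-NT K562 cells (black bars, circle at the summit) along the clustered histone genes (arrows). The x axis is the distance in bp from the start of the nearer gene, along its transcription. Summits lie 13 to 274 bp downstream of that start, and each panel gives the fold and the fragments over the summit.

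The 4 peaks were weak in their list. Their median fold was 5.85, beside 6.47 over the 1650 LSD1 peaks at all protein-coding starts and 6.99 over all 6548. Their median −log10 p was 8.33, beside 10.1 at all starts and 11.3 over the list. Solving fold and p together gave 9 fragments over the summit at 3 of the peaks and 10 at the H2BC13 peak, over local backgrounds of 0.637 to 1.05 fragments. The median was 12 fragments at all protein-coding starts, and the smallest number in the list was 6. No peak of the 4 had a base in common with a peak of another list. Few LSD1 peaks could, since the GFI1 list of the same cells held only 498 peaks. Of the 27 LSD1 peaks in the interval, 3 overlapped that list. The GFI1 list of THP1 cells overlapped 1 of the 27, and the remaining lists overlapped none. A count of 0 of 4 therefore does not set the histone peaks apart. Peaks are numbered along the genome in the deposited lists, and in the LSD1 list 1 number is missing between 26572740 and 27188473, a stretch that holds the 5 genes of the third group. The GFI1 list of sg-NT cells lacks 1 number over a stretch with the same 5 genes.

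**Figure D4:**
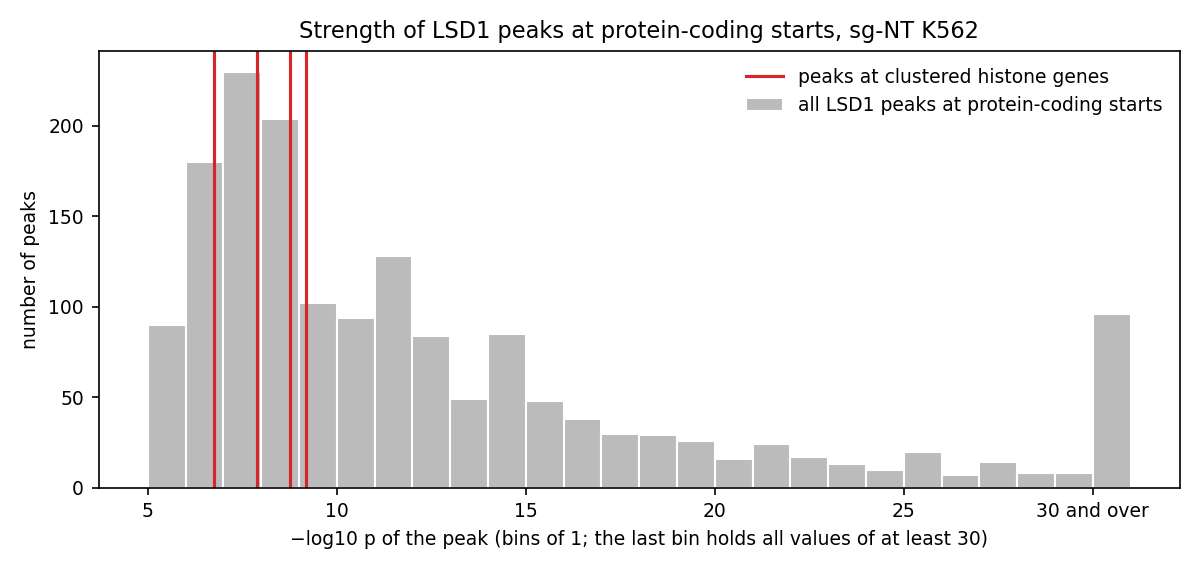
Number of LSD1 peaks at protein-coding starts (y axis) by −log10 p in bins of 1 (x axis), in sg-NT K562 cells. Gray bars are all 1650 peaks and red lines the 4 peaks at clustered histone genes, which lie between 6.75 and 9.19.

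Histone genes are near copies of each other, which bears on where short reads can be placed. Words of 36 bases in the 300 bp around each LSD1 summit were looked up in GRCh38. At the H2BC8/H2AC8 and H4C8 summits 100% of the words occurred once in the genome. At the H2BC13/H2AC13 summit 59.2% occurred once, and the others had up to 12 copies, with places in the H2B genes H2BC15, H2BC10 and H2BC12 among them. At the H4C11 summit 0% occurred once. All 265 words there were also found at H4C12, whose start lies 7.29 kb from the H4C11 summit and which had no peak in any list.

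With words of 100 bases, a length added after the data were seen, 100% were unique at the H2BC13/H2AC13 summit and still 0% at H4C11. Reads lying wholly within these 300 bp of H4C11 and in H4C12 therefore cannot be told apart by their letters. How reads with several best places were treated is not given in the sources used here, and its part in the H4C11 peak was not tested. Upstream of the starts the sequences were mostly unique, with a median of 100% of 36-base words over the 55 genes. The minimum was 45.7%, at H4C11 and H4C12, and 86.6% with words of 100 bases. In the 300 bp after the start the median was 97.7%. There, 5 genes were under 50%: H2AC13, H2AC14, H2BC12, H4C11 and H4C12. With words of 100 bases 4 genes were.

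The whole interval of 2.5 Mb held 27 LSD1 peaks of sg-NT cells, or 10.8 per Mb, beside 2.23 per Mb over the genome. Only 4 of the 27 lay at a histone start and none at another protein-coding start. The same interval also holds a large cluster of tRNA genes, with 100 of the 443 tRNA genes of the RefSeq table, and 16 of the 27 summits lay within 1000 bp of a tRNA gene. The tRNA genes were looked at after the data were seen. The remaining 7 lay at none of these. The peaks at histone starts had a median fold of 5.85, those at tRNA genes 6.31 (3.88 to 13.1) and the remaining 8.38 (4.26 to 11.1). By gene, 15 of 100 tRNA genes in the interval (15%) had an LSD1 peak, beside 84 of 443 (19%) over the genome.

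Counts at larger distances differed from those at the starts. The nearest LSD1 summit lay a median of 32.7 kb from a clustered histone gene and 103 kb from other genes. Within 50 kb, 44 of 55 (80%) had a summit, beside 36.3% of other genes. Within 5 kb the counts were 7 of 55 (12.7%) and 13.6%. Clustered genes share their neighborhoods, so the 55 distances are not independent. The seventh gene was H3C10, an H3 gene whose start lies 2.29 kb from the H2BC13 summit.

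The nearest GFI1 summit lay a median of 222 kb from a clustered histone gene in sg-NT cells (498 peaks), beside 1631 kb from other genes. In sg-LSD1 cells these medians were 161 kb and 5249 kb. The order was reversed in THP1 cells (3461 peaks), at 254 kb and 193 kb. For the 26 other protein-coding genes of the interval the medians were 130 kb in sg-NT, 194 kb in sg-LSD1 and 141 kb in THP1 cells. In sg-NT and THP1 cells these neighbors thus lay closer to a GFI1 summit than the clustered genes did, and in sg-LSD1 cells farther. Shares of genes within 50 kb of a GFI1 summit were 5.45% of clustered and 3.99% of other genes in sg-NT cells. They were 29.1% and 1.2% in sg-LSD1 cells, and 0% and 22% in THP1 cells. The 16 clustered genes behind the 29.1% all lay near the same summit, at 26206025, a peak with 10 fragments. Those behind the 5.45% all lay near the summit at 25974014, so these genes do not count as independent. Of the 26 other protein-coding genes of the interval, 19.2% lay within 50 kb in sg-NT, 15.4% in sg-LSD1 and 19.2% in THP1 cells. The longer LSD1 list (6548 peaks) had the median of 32.7 kb given above for clustered genes. H1-1, H2AC1 and H2BC1 were closer to a GFI1 summit of sg-NT cells than to an LSD1 summit. In sg-NT cells the interval held 5 GFI1 peaks, 4 of them at tRNA genes, and 3 of the 5 had a base in common with 1 of the 27 LSD1 peaks. The GFI1 peak nearest to a clustered histone gene lay 43.8 kb from H1-1. By gene, 4% of the 100 tRNA genes in the interval had a GFI1 peak in sg-NT cells, beside 3.16% of 443 over the genome. For the GFI1 list of THP1 cells these shares were 4% and 4.97%, so both lists were near the genome share. In THP1 cells the interval held 4 GFI1 peaks, 3 at tRNA genes and 1 at the start of TRIM38, and the nearest clustered histone gene was 55.2 kb from a summit. The single SPI1 peak of the interval lay at ZNF165, 187 kb from H2BC17.

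In sg-LSD1 cells the interval held 3 GFI1 peaks, and 1 of them, from 26205858 to 26206257, was the nearest GFI1 peak to a clustered histone gene in any list. Its summit at 26206025 lay 1415 bp downstream of the start of H4C5 (26204610), outside the 1000 bp. Its enrichment was 6.69-fold (−log10 p 9.96, −log10 q 5.46), with 10 fragments over the summit. No GFI1 peak of sg-NT cells overlapped it. Since each condition had 1 library, a difference between them was not tested. The 101 bases centered on the summit (chr6:26205975-26206075, plus strand) are shown because this GFI1 summit was the closest to the start of a clustered histone gene, and they hold none of the 7 motifs.
GFI1 peak near H4C5: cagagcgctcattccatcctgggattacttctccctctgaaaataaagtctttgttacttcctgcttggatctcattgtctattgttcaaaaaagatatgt

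The 38 histone genes outside the cluster gave shares of the same order. In the LSD1 list 5 of 38 (13.2%, 95% Wilson interval 5.75 to 27.3%) had a peak. They were the divergent pair H2AC25 and H2BC26 on chromosome 1, which shared a peak, and the genes of the variants H2AX, H2AZ2 and H3-3A. H3-3A, which encodes the replication-independent variant H3.3, had a peak of 9.30-fold (−log10 p 19.7). The H2AC25 and H2BC26 peak was at 7.79-fold (−log10 p 13.4). Of these, only the H2AX peak (fold 5.04, −log10 p 7.85) had a −log10 p within the range of the 4 peaks at clustered genes.

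In the other lists the histone genes outside the cluster had a few peaks where the clustered genes had none. The GFI1 list of THP1 cells held peaks at H2AC25, H2BC26 and H4C16, 3 of 38 genes (7.89%, 95% Wilson interval 2.72 to 20.8%), beside 4.77% of other protein-coding genes, a value within that interval. H2AC25 and H2BC26 were counted through the same peaks. The H4C16 summit lay 71 bp from the start (7.50-fold, −log10 p 15.1). The SPI1 list held a peak at H3C15 (fold 4.99, −log10 p 6.61). Neither GFI1 list of K562 cells held any.

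Among 32 genes that act in histone gene expression and histone supply, 5 (15.6%, 95% Wilson interval 6.86 to 31.8%) had an LSD1 peak and none had a peak in another list. The interval holds the 8.62% of other protein-coding genes, so this share too was near the background. SYMPK, a scaffold of the complex that cleaves histone messages, had the strongest, at 21.9-fold (−log10 p 55.5). CPSF3, the nuclease of that complex, had a fold of 5.50, and ERI1, an exonuclease that acts on the histone stem loop, a fold of 6.33. GON4L had a fold of 8.66. ASF1B, a chaperone of H3 and H4, had a fold of 4.38. The other 27 genes had no LSD1 peak, among them NPAT and SLBP, which binds the stem loop.

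The 26 other protein-coding genes of the interval had no LSD1 peak (0%, which allows up to 11.5%). Among the 3699 other genes with a start near that of another gene, 443 (12%) had one. The LSD1 share of the clustered histone genes, 10.9%, lay between the values of these sets, and its interval of 5.10 to 21.8% holds the second of them.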

How the data were processed

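The narrowPeak lists of 5 of the 12 samples were analysed. Inputs and murine H3K4me1 libraries were not used here. Per the paper and the submitters' processing notes, the authors trimmed reads (Trim Galore 0.6.1), mapped them to GRCh38 (Bowtie2 2.5.4), removed duplicates (Picard 3.1.0), called peaks in each library (MACS2 2.2.9.1, p threshold 1e-05) and removed ENCODE blacklist regions. Use of an input control in MACS2 is not given in the sources used here. The deposited fold was read as the ratio of pileup to local background at the summit, with a pseudocount of 1 added to each. The deposited −log10 values are the p-value and q-value of each peak. The deposited summit offset placed the summits on which the counts and distances rest, and the deposited score entered no result. No read totals were at hand, so depth is known only as the fragments over each summit, solved from fold and p with a pseudocount of 1.

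A gene had a peak when a summit lay within 1000 bp of the start of any of its protein-coding transcripts (GENCODE release 44). Shares have 95% Wilson intervals, and a count of 0 was read as up to 3 counts. Genes named are all clustered histone genes with a peak, and the gene lists by count. The members and lists were chosen with earlier results of these data known. Promoter letters were read from GRCh38, and the 50 windows matched in RefSeq had the same bases. Counting and solving were tested on simulated data. Python 3.11.15, numpy 2.4.6, scipy 1.17.1 and matplotlib 3.10.9 were used.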

Additional observations from a re-analysis of the deposited data

How the results depend on the processing

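The count of clustered histone genes with an LSD1 peak was 6. It fell to 3 (H4C8, H2BC13 and H2AC13) with a −log10 p of at least 8, where 6.12% of other genes kept a peak, and to 0 in the strongest 160 LSD1 peaks. It was 5 at 500 bp (9.09%, beside 6.19% of other genes) and 7 at 5000 bp, with the shares within 5 kb given above. With any base of the peak it was 6 (10.9%, beside 9.13% of other genes). It was also 6 with canonical transcripts or with a −log10 q of at least 2. For these last settings and for the strongest 160 peaks no share of other genes is given. The GFI1 count of sg-LSD1 cells rose from 0 to 1 (H4C5) at 5000 bp, where 0.255% of other genes had a peak. A stricter list can only lower a count and a wider window can only raise it, so the direction of these changes was fixed, but not their size. The counts of the SPI1 list, of the GFI1 lists of THP1 and sg-NT cells, of shared peaks and of motifs at summits stayed at 0 under every alternative run. Leaving out a replicate was not possible with 1 library per group. No paired analysis was possible because the results come from no test. Depth limits the lists: the peaks at clustered histone genes rest on 9 or 10 fragments over the summit, and the LSD1 list holds none with fewer than 6.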
